A study of Mus musculus with 6 samples.

Results

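The enzymes and carriers that burn fatty acids, with the enzyme that interconverts the ketone bodies, were followed in adrenals of grown female mice. The list held 31 genes, chosen by name for mitochondrial and peroxisomal fatty acid oxidation and ketone body metabolism. The choice was made with earlier results of these data known. A gene was included if a probe set on the array was annotated with its symbol alone, and the brightest such probe set stood for the gene. This gave 30 genes of the 14727 genes tested. Cpt1b, the muscle form of carnitine palmitoyltransferase 1, shares its probe set with another symbol and was not analysed here. All 30 genes passed the filter on low values.

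The CGP group was the female C57Bl/6J offspring of mothers that received CGP 39551, which blocks glutamate receptors of the NMDA (N-methyl-D-aspartate) class, orally at a dose of 5 mg/kg body weight during pregnancy and until the pups were weaned. The control group was age-matched female C57Bl/6J offspring labelled as control, and the adrenals of both groups were frozen at 21 weeks of age. RNA of 18 mice was pooled in each group and 3 Affymetrix arrays were run per group. Whether the 3 arrays shared 1 pool is not stated, so a p-value here rests on array-to-array spread alone, which may be technical. The comparison asked how adult adrenal gene expression differed after the receptor had been blocked in development.

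A fatty acid is first joined to coenzyme A, and long chains then enter the mitochondrion on carnitine. There, repeated rounds of oxidation, hydration, a further oxidation and thiolysis shorten the chain and release acetyl-CoA, while electrons pass through the electron transfer flavoprotein (ETF) to the respiratory chain. Peroxisomes run a similar spiral on very long and branched chains, and the liver turns acetyl-CoA into ketone bodies that other organs burn. Cells of the adrenal cortex store cholesterol esterified with fatty acids in lipid droplets as material for steroid hormones, and brown fat, which burns fatty acids for heat, can lie against the gland.

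Several steps along this route were higher in the CGP group and a pair of genes was lower. Crat, Acadl, Etfdh and Hadhb, which act in carnitine exchange, the first oxidation, electron transfer and the last steps of the mitochondrial spiral, were 1.17-fold to 1.25-fold higher. Slc27a2, which activates and takes up long chains, was 1.55-fold lower, and Ehhadh of the peroxisomal spiral was 1.23-fold lower. The test was limma on log2 expression, with p-values adjusted over all 16034 probe sets tested, and a gene passed at an adjusted p under 0.05. Thus 4 of 30 genes (13.3%) were higher, where 1.94% of all probe sets were. A further 2 (6.67%) were lower, where 1.59% were, and in either direction 3.53% of all probe sets passed. As the list was chosen with earlier results of these data known, these shares describe it and are no test of the pathway. The remaining 24 genes did not pass, and 7 of these had an unadjusted p under 0.05.

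Of the 24 genes that did not pass, 10 were higher on every CGP array than on every control array, and 1, Bdh1, was lower. With the genes that passed included, the 3 CGP arrays lay wholly above the 3 control arrays for 14 of the 30 genes (46.7%), against 13.7% of all probe sets. They lay wholly below for 3 genes, Slc27a2, Ehhadh and Bdh1 (10%), against 12.6% of all probe sets. On related lists described below, 10 of 17 branched-chain oxidation genes and 8 of 15 fatty acid uptake genes lay wholly above. The count was 5 of 14 for mitochondrial partners, 6 of 21 for peroxisomal partners and 0 of 5 for other ETF-linked dehydrogenases. The median standard error was 0.048 for the 30 genes and 0.060 for all genes tested. Its part in these shares was not tested. The median log2 fold change (CGP minus control) of the 30 genes was 0.05, against -0.01 over all genes tested. Of the 30 genes, 21 (70.0%) were positive, against 45.0% of all genes. Positive values were also held by 15 of 17 branched-chain genes, 11 of 14 mitochondrial partners and 9 of 10 adrenal cortex genes. Of the 5 other ETF-linked dehydrogenases, 1 was positive. The upward lean was thus not particular to the 30 genes. The changes of the 30 genes were small, from -0.63 for Slc27a2 to 0.32 for Crat. Over the 30 genes, the standard deviation of the log2 difference between arrays of opposite groups was 0.184 to 0.275. It was 0.0667 to 0.158 between CGP arrays and 0.0773 to 0.0862 between control arrays. Over all probe sets tested it was 0.160 to 0.218 between groups, 0.103 to 0.128 between CGP arrays and 0.135 to 0.177 between control arrays. How far single genes such as Slc27a2 set the values of the 30 genes was not tested.

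**Figure D1:**
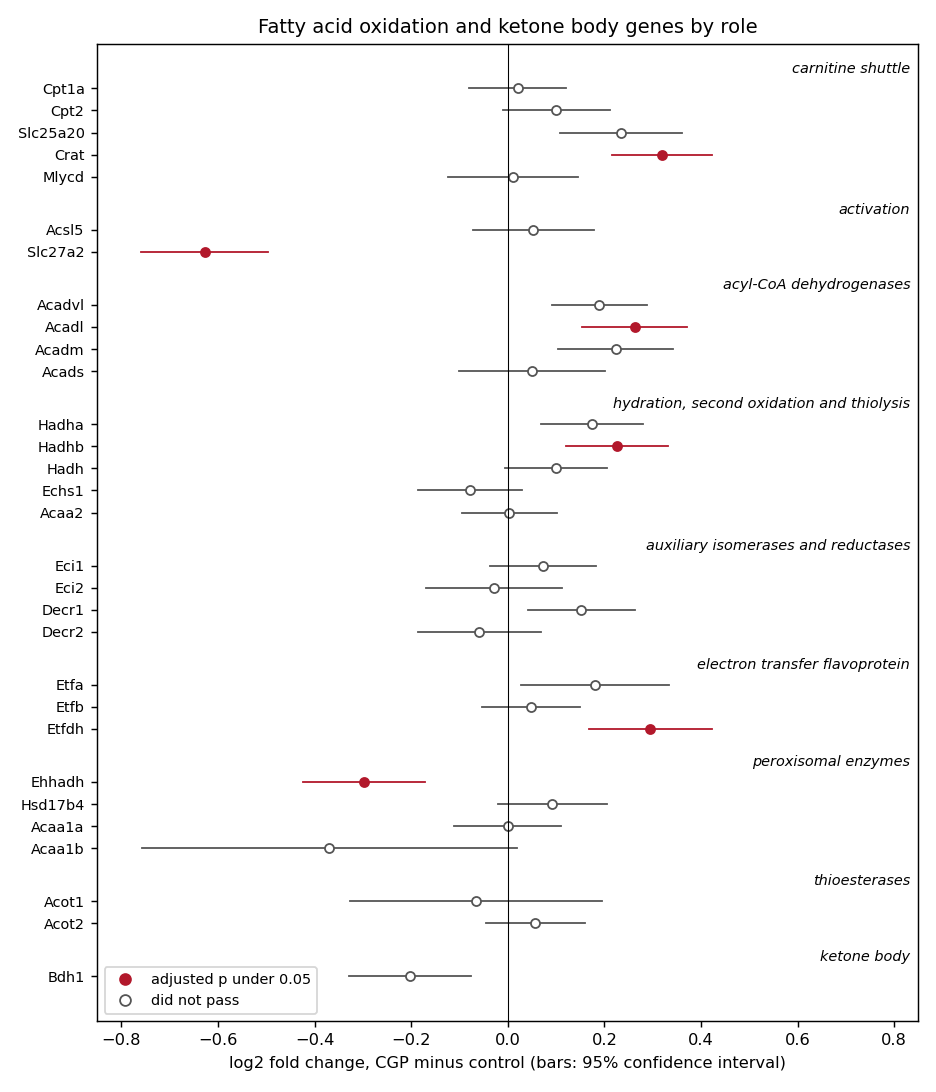
Log2 fold change (CGP minus control, x axis) of each of the 30 genes, grouped by role (y axis), with its 95% confidence interval as a bar and filled points for an adjusted p under 0.05. Crat, Acadl, Etfdh and Hadhb lie to the right of 0, and Slc27a2 at -0.63 and Ehhadh at -0.30 to the left.

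Marker genes of other cell types moved with the groups. Of 21 hepatocyte genes, 21 were lower (median log2 fold change -0.79), and their summed linear signal was 23062 to 23719.5 on the CGP arrays and 37412 to 37797 on the control arrays. Of 9 brown fat genes, 7 were higher (median 0.59), with sums of 11770.2 to 11931 on the CGP arrays and 6688 to 6947 on the control arrays, and Ucp1, the heat-producing uncoupling protein, was higher by 1.22 (adjusted p = 4.33e-05). Of 10 adipocyte genes, 8 were higher (median 0.42), with sums of 36366 to 36909.6 on the CGP arrays and 27616 to 28102 on the control arrays. Among hepatocyte genes, Cyp7a1, which starts bile acid synthesis, lay under array background on the 3 CGP arrays, and no gene of these 3 lists lay under it on all 6 arrays.

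Markers of the labelled tissue were above array background. None of 10 adrenal cortex genes and none of 9 chromaffin cell genes passed the test or lay under background on all arrays (limma; 1 gene of each list had an unadjusted p under 0.05). Cortex genes summed to 99018 to 102662 on the CGP arrays and 95341 to 99138 on the control arrays. Of 8 skeletal muscle and 5 kidney genes none passed either (limma; 2 and 0 with an unadjusted p under 0.05), but 2 of the kidney genes lay at or under background on most arrays (Slc22a6 on 6, Cdh16 on 5) and say little. In such whole-gland RNA, a different amount of a cell type and a different RNA level per cell cannot be told apart. Nor can cells of the gland be told from cells of tissue beside it that was taken along. The part of the hepatocyte, adipocyte and brown fat signal in the results on fatty acid oxidation was not tested.

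**Figure D2:**
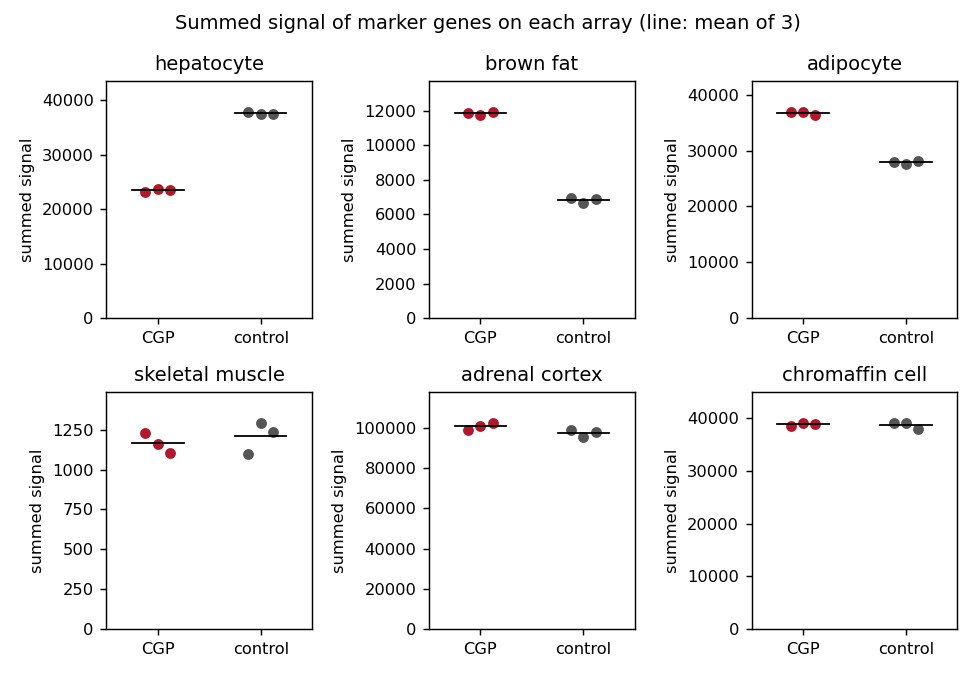
Summed linear signal (y axis) of the tested marker genes of 6 cell types on each CGP and control array (x axis), with a line at the mean of 3 arrays. The hepatocyte sums are lower and the brown fat and adipocyte sums higher on every CGP array than on every control array, and the skeletal muscle and chromaffin cell sums of the groups overlap.

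Slc27a2, a very long-chain acyl-CoA synthetase and fatty acid transporter abundant in liver and kidney, differed most among the 30 genes. Its log2 expression was 9.20, 9.29 and 9.28 on CGP arrays 1 to 3, against 9.95, 9.79 and 9.92 on control arrays 1 to 3. The lowest control array thus lay well above the highest CGP array. The log2 fold change was -0.63 (SE 0.06, 95% confidence interval -0.76 to -0.50, adjusted p = 0.000747), and the adjusted p lay between 0.00092 and 0.00708 when any 1 array was left out. Acsl5, an acyl-CoA synthetase that also activates long chains, averaged 8.96 ± 0.04 in the CGP group and 8.90 ± 0.07 in the control group (SD, n = 3 each). Its groups overlapped, and the difference was 0.05 (-0.07 to 0.18, adjusted p = 0.628).

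The 5 genes grouped as the carnitine shuttle, with Mlycd of malonyl-CoA breakdown counted among them, had log2 fold changes above 0 (median 0.10). Those of Cpt1a and Mlycd were only 0.02 and 0.01, and Crat alone passed the test. Crat, carnitine acetyltransferase, moves acetyl groups between coenzyme A and carnitine and so buffers acetyl-CoA. It had 11.05, 11.01 and 10.98 on the CGP arrays and 10.68, 10.69 and 10.72 on the control arrays. The groups were separated by more than the spread within either, with a log2 fold change of 0.32 (SE 0.04, 0.22 to 0.42, adjusted p = 0.00797). Without CGP array 2 the adjusted p was 0.0542. Slc25a20, the carrier that exchanges acylcarnitine for carnitine across the inner membrane, averaged 10.03 ± 0.03 in the CGP group and 9.80 ± 0.08 in the control group (SD, n = 3 each), a difference of 0.23 (SE 0.05, adjusted p = 0.0638). It did not pass the test, but did without control array 1 (adjusted p = 0.0454).

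The transferases on either side of that carrier differed little. Cpt1a, the liver form of the outer-membrane enzyme and the step that malonyl-CoA inhibits, had 11.96, 11.99 and 12.00 on the CGP arrays and 11.99, 11.96 and 11.93 on the control arrays. Its groups overlapped, and the interval of the difference was -0.08 to 0.12 (adjusted p = 0.828). Cpt2, which returns the acyl group to coenzyme A inside, had 10.82, 10.78 and 10.86 on the CGP arrays and 10.71, 10.69 and 10.77 on the control arrays (difference 0.10, -0.01 to 0.21, adjusted p = 0.296). These groups lay close together without overlap. Mlycd, the decarboxylase that removes malonyl-CoA, had a difference of 0.01 (-0.12 to 0.15, adjusted p = 0.936), which was -0.0023 with quantile normalisation, -0.04 with array weights and -0.04 without control array 2.

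The acyl-CoA dehydrogenases, which open each round of the mitochondrial spiral and differ in the chain length they prefer, had 4 of 4 log2 fold changes above 0 (median 0.21). Acadl, the long-chain enzyme, passed the test, with 11.10, 11.15 and 11.13 on the CGP arrays and 10.92, 10.82 and 10.84 on the control arrays (log2 fold change 0.26, SE 0.05, adjusted p = 0.0254). Acadvl, the very long-chain enzyme, had 9.87, 9.87 and 9.84 on the CGP arrays and 9.65, 9.67 and 9.69 on the control arrays (0.19, 0.09 to 0.29, adjusted p = 0.0572). Acadm, the medium-chain enzyme, had 11.70, 11.60 and 11.64 on the CGP arrays and 11.39, 11.39 and 11.49 on the control arrays (0.22, 0.10 to 0.34, adjusted p = 0.0631). For these 3 genes every CGP array lay above every control array. Acads, the short-chain enzyme, overlapped between groups, at 10.78, 10.78 and 10.65 on the CGP arrays and 10.57, 10.74 and 10.74 on the control arrays (0.05, -0.10 to 0.20, adjusted p = 0.712; -0.0069 without control array 1). The call of Acadl was lost when CGP array 1, 2 or 3 or control array 2 or 3 was left out (adjusted p 0.0688 to 0.133).

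Hadha and Hadhb encode the subunits of the trifunctional protein, which carries out the last steps of the spiral on long chains. Hadhb, the thiolase subunit, had 11.41, 11.46 and 11.43 on the CGP arrays and 11.25, 11.20 and 11.17 on the control arrays (log2 fold change 0.23, SE 0.05, adjusted p = 0.0402). Another probe set of Hadhb was also higher, by 0.24 (SE 0.05, adjusted p = 0.0425). Hadha, the hydratase and dehydrogenase subunit, had 11.79, 11.84 and 11.84 on the CGP arrays and 11.66, 11.60 and 11.68 on the control arrays. Both subunits were above the controls on every CGP array, but Hadha did not pass the test (0.17, 0.07 to 0.28, adjusted p = 0.0882). The call of Hadhb was lost without CGP array 1, 2 or 3 or control array 2 or 3 (adjusted p 0.0914 to 0.183).

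The enzymes for shorter chains at the same steps did not pass. Hadh, the short-chain hydroxyacyl-CoA dehydrogenase, was 12.42, 12.40 and 12.34 on the CGP arrays and 12.29, 12.31 and 12.26 on the control arrays (0.10, -0.01 to 0.20, adjusted p = 0.278). Echs1, the short-chain hydratase, differed by -0.08 (-0.19 to 0.03, adjusted p = 0.402). Acaa2, the mitochondrial thiolase, stood at means of 11.90 in the CGP group and 11.90 in the control group (interval -0.10 to 0.10, adjusted p = 0.977). Hadh was without overlap between groups, and Echs1 and Acaa2 overlapped.

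The auxiliary isomerases and reductases, which prepare unsaturated chains for the spiral, held no called gene among 4 (median 0.02, limma; 1 with an unadjusted p under 0.05). Decr1, the mitochondrial dienoyl-CoA reductase, lay above the controls on every CGP array, at 10.21, 10.17 and 10.12, against 10.03, 9.97 and 10.04 on the control arrays (0.15, 0.04 to 0.26, adjusted p = 0.140). Eci1, the mitochondrial enoyl-CoA isomerase, also did not overlap between groups (0.07, -0.04 to 0.18, adjusted p = 0.439). Eci2, a related isomerase also found in peroxisomes, and Decr2, the peroxisomal reductase, overlapped between groups, with differences of -0.03 (adjusted p = 0.823) and -0.06 (adjusted p = 0.591).

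The electron transfer genes were positive for 3 of 3 (median 0.18). Etfdh, the membrane enzyme that hands electrons from ETF to ubiquinone, had 10.24, 10.24 and 10.19 on the CGP arrays and 10.02, 9.90 and 9.86 on the control arrays. Control array 1 lay nearest to the CGP group. The log2 fold change was 0.29 (SE 0.05, 0.17 to 0.42, adjusted p = 0.0295), and the call was lost without CGP array 1, 2 or 3 or control array 2 or 3 (adjusted p 0.0821 to 0.136). Etfa, the alpha subunit of ETF, had 9.69, 9.71 and 9.86 on the CGP arrays and 9.63, 9.47 and 9.61 on the control arrays (0.18, 0.03 to 0.33, adjusted p = 0.191), without overlap. Etfb, the beta subunit, overlapped between groups and differed by 0.05 (-0.05 to 0.15, adjusted p = 0.586).

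The peroxisomal enzymes held 1 lower gene among 4 (median -0.15). Ehhadh, the bifunctional hydratase and dehydrogenase of the classical peroxisomal spiral, had 9.75, 9.85 and 9.77 on the CGP arrays and 10.14, 10.01 and 10.11 on the control arrays (log2 fold change -0.30, SE 0.05, -0.42 to -0.17, adjusted p = 0.0271). All CGP arrays lay below all control arrays, and the call was lost without CGP array 1, 2 or 3 or control array 3 (adjusted p 0.072 to 0.124). Hsd17b4, the other peroxisomal bifunctional enzyme, which also handles branched chains, had 9.95, 10.02 and 9.99 on the CGP arrays and 9.92, 9.83 and 9.93 on the control arrays (0.09, -0.02 to 0.20, adjusted p = 0.342).

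The peroxisomal thiolases did not pass. Acaa1a had 8.86, 8.77 and 8.84 on the CGP arrays and 8.87, 8.80 and 8.81 on the control arrays (interval -0.11 to 0.11, adjusted p = 0.996). Acaa1b had 7.86, 7.88 and 7.23 on the CGP arrays and 8.04, 7.88 and 8.15 on the control arrays (-0.37, -0.76 to 0.02, adjusted p = 0.276). CGP array 3 lay far below the other CGP arrays for Acaa1b, with an SD of 0.37 in the CGP group and 0.14 in the control group, and the difference was -0.16 without it.

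The thioesterases, which split acyl-CoA back to free fatty acid, did not pass. Acot1, the cytosolic enzyme, lay at or under array background on 5 of the 6 arrays, at 6.20, 6.45 and 5.98 on the CGP arrays and 6.24, 6.20 and 6.38 on the control arrays, and its difference is not interpreted. Acot2, its mitochondrial relative, had 10.48, 10.49 and 10.43 on the CGP arrays and 10.41, 10.44 and 10.38 on the control arrays (0.06, -0.05 to 0.16, adjusted p = 0.519). Acot1 and Acot2, and likewise Acaa1a and Acaa1b, are close paralogs, and how far their probe sets cross-react was not tested. Bdh1, the mitochondrial enzyme that interconverts acetoacetate and beta-hydroxybutyrate, had 7.28, 7.26 and 7.13 on the CGP arrays and 7.45, 7.40 and 7.43 on the control arrays. Every CGP array lay below every control array, but the difference did not pass (-0.20, -0.33 to -0.08, adjusted p = 0.0936).

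**Figure D3:**
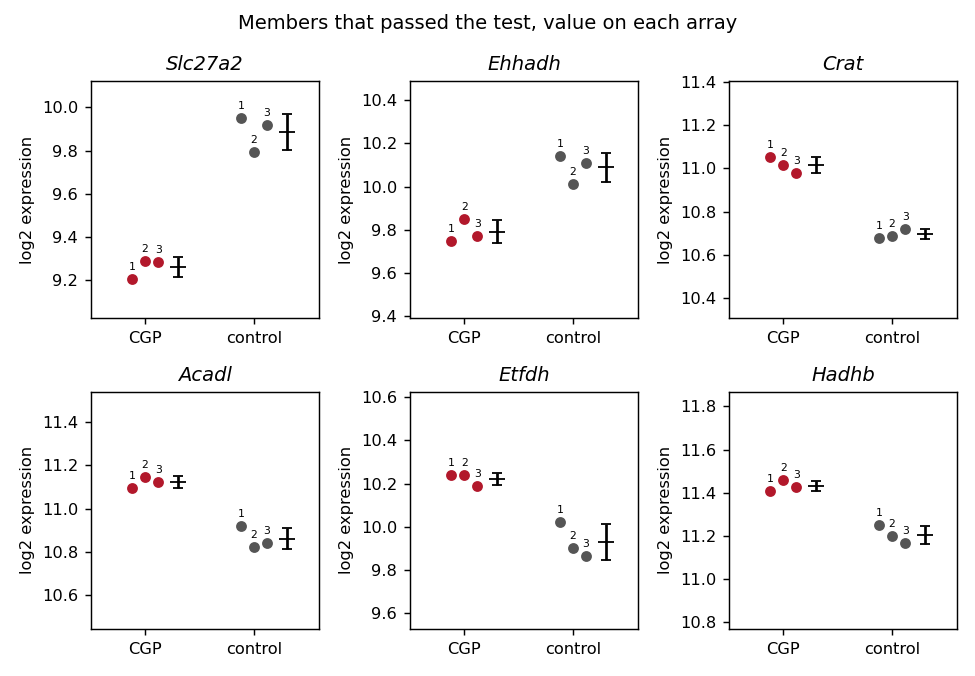
Log2 expression (y axis) of the 6 genes that passed the test on each of the 3 CGP and 3 control arrays (x axis, arrays numbered), with means and SDs (bars) drawn beside the points. The CGP arrays lie wholly below the controls for Slc27a2 and Ehhadh and wholly above them for Crat, Acadl, Etfdh and Hadhb.

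**Figure D4:**
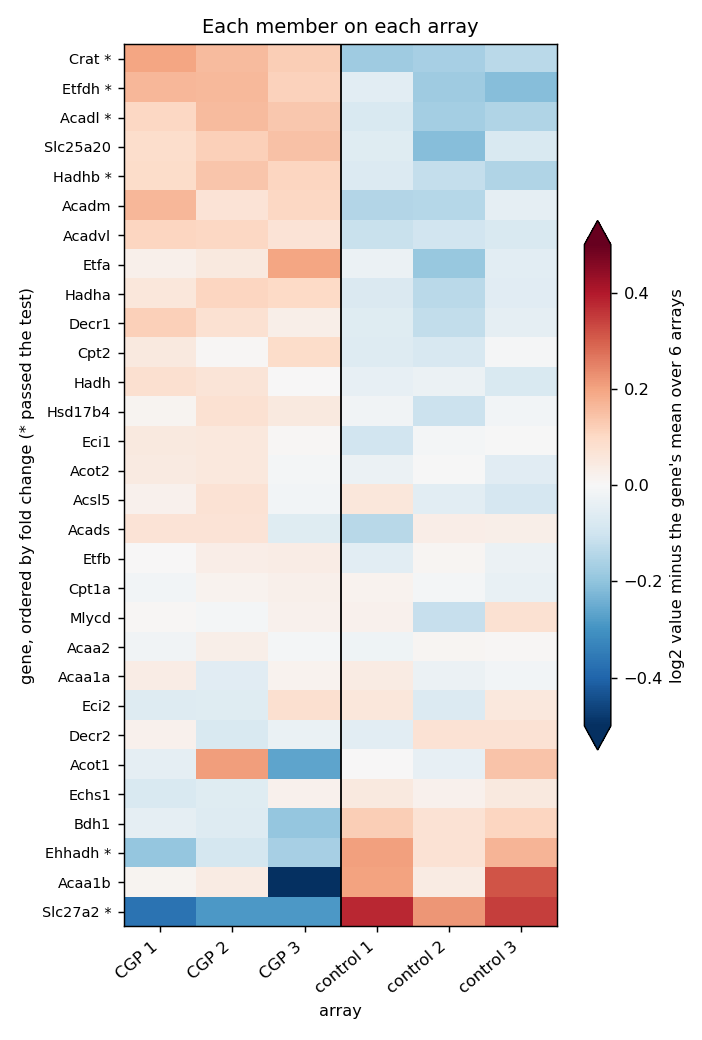
Log2 value of each of the 30 genes minus its mean over 6 arrays (colour), by array (x axis) and gene (y axis, ordered by fold change, with an asterisk for genes that passed the test). The genes at the top are higher on all 3 CGP arrays, Slc27a2 at the bottom is lower on all 3, and Acaa1b stands out on CGP array 3, where its value lies beyond the end of the colour scale.

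Promoter sequences are shown for the genes that passed the test, to set the letters of the lower genes beside those of the higher ones. RefSeq windows (build GRCm38.p6) of 250 bases before to 50 after the start of transcription were matched for 26 of the 31 genes (not Cpt1b, Crat, Decr1, Acaa2 or Hsd17b4). Capitals mark 2 motifs, searched on both strands: AGGTCA, the core that nuclear receptors such as the peroxisome proliferator-activated receptors (PPARs) bind, which reads TGACCT on the opposite strand, and GGGCGG, the GC box bound by Sp1, which reads CCGCCC there. The 2 motifs cannot overlap. Each window is written 5′ to 3′ on the strand of its gene.
Slc27a2, chr2:126552774-126553073, plus strand: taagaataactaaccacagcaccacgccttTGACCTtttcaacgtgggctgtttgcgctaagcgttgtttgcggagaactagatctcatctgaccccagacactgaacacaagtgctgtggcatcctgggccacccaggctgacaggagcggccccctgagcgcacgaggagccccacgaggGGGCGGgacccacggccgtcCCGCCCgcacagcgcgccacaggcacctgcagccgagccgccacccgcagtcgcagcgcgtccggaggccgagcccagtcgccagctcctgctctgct
Ehhadh, chr16:21787785-21788084, minus strand: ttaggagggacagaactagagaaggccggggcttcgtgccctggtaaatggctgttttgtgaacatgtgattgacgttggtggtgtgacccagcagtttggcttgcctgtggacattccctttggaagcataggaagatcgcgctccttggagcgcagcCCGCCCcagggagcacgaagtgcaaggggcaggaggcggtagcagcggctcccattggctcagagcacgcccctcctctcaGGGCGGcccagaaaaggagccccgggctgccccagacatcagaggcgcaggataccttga
Acadl, chr1:66863260-66863559, minus strand: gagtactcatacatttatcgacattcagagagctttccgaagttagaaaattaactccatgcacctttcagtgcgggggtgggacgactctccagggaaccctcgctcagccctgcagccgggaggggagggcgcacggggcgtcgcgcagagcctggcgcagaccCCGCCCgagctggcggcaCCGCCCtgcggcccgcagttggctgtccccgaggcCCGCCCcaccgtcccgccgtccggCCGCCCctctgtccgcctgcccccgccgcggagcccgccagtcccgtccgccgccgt
Etfdh, chr3:79628718-79629017, minus strand: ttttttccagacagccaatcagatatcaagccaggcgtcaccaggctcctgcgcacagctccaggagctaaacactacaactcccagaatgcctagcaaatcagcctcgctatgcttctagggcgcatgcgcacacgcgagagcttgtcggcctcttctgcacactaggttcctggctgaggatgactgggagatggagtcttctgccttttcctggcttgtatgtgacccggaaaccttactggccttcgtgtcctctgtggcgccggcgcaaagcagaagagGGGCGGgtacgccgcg
Hadhb, chr5:30155003-30155302, plus strand: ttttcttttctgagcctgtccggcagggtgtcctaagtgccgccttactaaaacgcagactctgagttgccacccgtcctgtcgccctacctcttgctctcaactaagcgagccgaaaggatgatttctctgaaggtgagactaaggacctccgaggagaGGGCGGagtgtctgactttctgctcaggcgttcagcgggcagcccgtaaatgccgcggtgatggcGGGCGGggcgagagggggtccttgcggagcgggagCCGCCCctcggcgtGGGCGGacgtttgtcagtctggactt

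AGGTCA was found in 5 of the 26 windows, those of Slc27a2, Acadm, Acadvl, Echs1 and Cpt1a, and in 15.8% of the windows of all tested genes. Slc27a2 was the only gene with it among the 5 windows printed, at positions -220 to -215 from the start. GGGCGG was found in 19 of 26 windows and in 64.1% of those of all tested genes, and each window printed holds it, with 4 matches in Acadl and 4 in Hadhb. A direct repeat of the core with 1 base between, AGGTCANAGGTCA, is the form to which PPARs bind with their RXR partner. Its exact letters were in none of the 26 windows and in 0.043% of those of all tested genes. At so low a share none was likely in 26 windows, and looser or more distant matches were not searched. This absence is therefore uninformative. Hadha and Hadhb lie head to head, with starts 273 bases apart, so that their windows share 228 bases. A match is a description of letters and not of binding.

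Beyond these genes, the rest of the pathway was described with lists of other enzymes, carriers and regulators. Acot3 (peroxisomal partners), Bdh2 (ketone bodies) and Fgf21 (PPAR alpha targets) lay at or under array background on 6 arrays. Acad12 (mitochondrial partners) did so on 5. They are counted among the genes tested below but say little. In fatty acid uptake and activation 6 genes were higher and 2 lower of 15 tested (median 0.10), with 3 higher without CGP array 2 or 3, and 1 lower without CGP array 1, 2 or 3 or control array 3. Fabp3, a fatty acid-binding protein of heart, muscle and brown fat, had 9.32, 9.27 and 9.37 on the CGP arrays and 8.53, 8.44 and 8.31 on the control arrays (log2 fold change 0.90, adjusted p = 0.000249). Fabp4, the fat cell binding protein, and Slc27a1, a fatty acid transporter, were higher by 0.40 (adjusted p = 0.00731) and 0.36 (adjusted p = 0.00535). Slc27a5, the liver bile acid and fatty acid CoA ligase in the same family as Slc27a2, had 7.38, 7.38 and 7.47 on the CGP arrays and 8.23, 8.32 and 8.30 on the control arrays (-0.88, adjusted p = 0.000106). Members of the Slc27 family thus differed in both directions. Named after their values were seen, Acsm3 (0.46), the uptake receptor Cd36 (0.38) and the synthetase Acsl4 (0.25) made up the other higher genes, and Fabp1, the liver binding protein, was the other lower gene (-0.56, adjusted p = 0.0168).

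The partners of the mitochondrial spiral held no called gene among 14 (median 0.06, limma; 4 with an unadjusted p under 0.05), with differences from -0.09 to 0.21, and 2 were higher without control array 1. Of 21 peroxisomal partners 1 was higher, or 2 without control array 1, and 1 was lower (median 0.04). Abcd2, which carries very long chains into the peroxisome, had 7.88, 8.04 and 7.91 on the CGP arrays and 7.45, 7.27 and 7.41 on the control arrays (0.56, adjusted p = 0.00332). Acox2, the oxidase for branched chains and bile acid intermediates, had 6.78, 6.58 and 6.63 on the CGP arrays and 7.09, 7.31 and 7.33 on the control arrays (-0.58, adjusted p = 0.00787; 0.0552 without CGP array 3). Abcd2 and Acox2 did not overlap between groups.

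Of 9 genes of ketone body synthesis, use and transport, 1 was higher (median 0.08, limma, 5 with an unadjusted p under 0.05). Slc16a1, the transporter MCT1 for lactate and ketone bodies, had 9.51, 9.48 and 9.52 on the CGP arrays and 9.14, 9.14 and 9.08 on the control arrays (0.38, adjusted p = 0.00301). Oxct1, which activates acetoacetate for use as fuel, averaged 8.11 in the CGP group and 7.92 in the control group (0.19, adjusted p = 0.0907; 0.0396 without control array 1). Every CGP array lay above every control array for 3 of the 9 genes, among them Slc16a1 and Oxct1, opposite to Bdh1. For 1, Slc16a6, every CGP array lay below (-0.13, adjusted p = 0.211), as for Bdh1. Slc16a7 differed by -0.27 (adjusted p = 0.166) with overlap. Slc16a6 and Slc16a7 were named after their values were seen.

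Of 9 genes of malonyl-CoA metabolism and the AMP-activated kinase, 1 was higher (median 0.08). Acacb, the acetyl-CoA carboxylase whose malonyl-CoA restrains carnitine palmitoyltransferase 1, had 9.58, 9.56 and 9.49 on the CGP arrays and 9.18, 9.10 and 9.23 on the control arrays (0.37, adjusted p = 0.00909; 0.059 without CGP array 2). Of 10 PPAR regulators 3 were higher and none lower (median 0.10). Lpin1, a phosphatidate phosphatase and coactivator, was higher by 0.58 (adjusted p = 0.000883) and Pparg, the receptor that drives fat cell formation, by 0.46 (adjusted p = 0.00396). Ppargc1a, the coactivator PGC-1 alpha, was higher by 0.39 (adjusted p = 0.0156; 0.0507 to 0.0734 without CGP array 1 or 2 or control array 3). Ppara, the receptor most tied to fatty acid oxidation, had 8.27, 8.28 and 8.28 on the CGP arrays and 8.16, 8.15 and 8.13 on the control arrays and did not pass (0.13, adjusted p = 0.151).

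Other known targets of PPAR alpha, outside the 30 genes of the set, split by direction, with 3 higher and 2 lower of 10 (median 0.07). Pdk4, the kinase that shuts pyruvate dehydrogenase and so spares glucose, had 11.76, 11.77 and 11.77 on the CGP arrays and 11.32, 11.30 and 11.29 on the control arrays (0.47, adjusted p = 0.000692). Cidea, a lipid droplet protein of brown fat, was higher by 0.66 (adjusted p = 0.00201), and Ucp3, an uncoupling protein relative named after its value was seen, by 0.50 (adjusted p = 0.00414). The fatty acid omega-hydroxylases were lower. Cyp4a14 had 10.78, 10.88 and 10.95 on the CGP arrays and 11.78, 11.78 and 11.74 on the control arrays (-0.89, adjusted p = 0.000112), and Cyp4a10 differed by -0.89 (adjusted p = 0.000604). Fabp4 is also on the adipocyte list and Cidea on the brown fat list.

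Pathways that feed the same electron carrier were described last. Of 17 genes of branched-chain amino acid oxidation 1 was higher (median 0.14). It was Aldh6a1, methylmalonate semialdehyde dehydrogenase (0.23, adjusted p = 0.0491), whose call was lost on leaving out any of the 6 arrays (adjusted p 0.0508 to 0.205), and the list held 0 to 2 higher genes on such omission, with 2 without control array 1. Of 5 dehydrogenases on a separate list that pass electrons to ETF 2 were lower (median -0.16), and Ivd, which did not pass, is counted both here and among the branched-chain genes. Dmgdh and Sardh, which demethylate dimethylglycine and sarcosine, differed by -0.67 (adjusted p = 0.00462) and -0.40 (adjusted p = 0.00415). Etfdh, through which their electrons also pass, was higher.

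**Figure D5:**
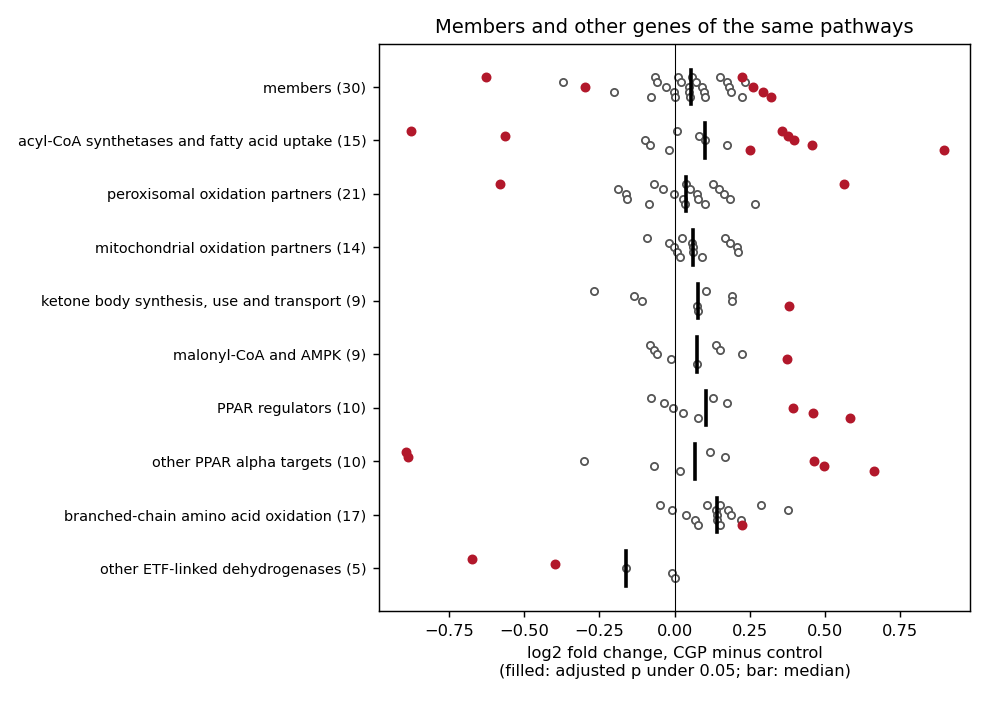
Log2 fold change (CGP minus control, x axis) of the 30 genes and of the tested genes of 9 related lists (y axis, number tested in brackets), with filled points for an adjusted p under 0.05 and a bar at each median. Fabp3 at 0.90 lies farthest to the right, and Slc27a5, Cyp4a14 and Cyp4a10, at -0.88, -0.89 and -0.89, farthest to the left.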

How the data were processed

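The deposited table holds log2 expression from 6 Affymetrix whole-transcript arrays, 3 per group, over 25150 probe sets. RMA (robust multi-array average) and Partek are named in the submitters' processing notes, without versions, and the build is not given in the sources used here. RMA corrects background, quantile normalises and summarises probes, so that levels compare between arrays and not between probe sets. No further normalisation was applied. Groups came from the sample labels.

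Gene symbols were those of the platform annotation (16769 probe sets with 1 symbol, 1031 with several, 7350 with none). Probe sets with 1 symbol that reached a log2 value of 6 on 3 or more arrays were tested, which left out 735. Groups were compared by limma's moderated two-sided test (version 3.58.1, R 4.3.3, lmFit then eBayes, no covariates) with Benjamini-Hochberg adjustment over 16034 probe sets, and the script was tested on simulated data. SE is the moderated standard error, and intervals are 95% confidence intervals. Array background was the 75th percentile of 127 sensory receptor probe sets (6.42 to 6.55 on CGP arrays, 6.49 to 6.65 on control arrays). Arrays have no read depth, and their number limits the precision. Motifs were searched with Python 3.11.15 and plots drawn with matplotlib 3.10.9.

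All genes of the set were described, and up to 4 genes of each related list with the smallest adjusted p, with Ppara, Ppargc1a and Oxct1 whatever their values. Some further items are not reported here. The genes and lists were chosen with earlier results of these data known. The alternatives changed the filter, the probe sets used, the scaling, the variance model or the array weights, blocked on array number, or omitted single arrays.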

Additional observations from a re-analysis of the deposited data

How the results depend on the processing

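Of the genes of the set, 4 were higher and 2 lower in the CGP group. The count higher was 7 with the log2 filter at 7, 1 with all probe sets tested, 9 with a variance trend and robust prior, 7 with array weights, and 0 to 5 with any 1 array left out. The count lower was 1 with all probe sets tested, 3 with array weights, where Bdh1 joined (adjusted p = 0.0413), and 1 to 2 with any 1 array left out. With no filter, quantile normalisation, median centring or the mean of a gene's probe sets, 4 or 5 were higher and 2 lower. No called gene of the set, nor any called gene taken from the related lists by their smallest adjusted p, changed direction under any of the 15 alternatives. The causes were not tested. The median over all probe sets tested stayed between -0.02 and 0.00 under every alternative.

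Deviations of arrays with the same number correlated at -0.36, -0.17 and -0.12, and those of arrays with different numbers at -0.16 to 0.28. As deviations were taken from the mean of only 3 arrays per group, these values cannot decide whether array numbers pair the samples. With the replicate block, 0 genes of the set were higher and 1 lower (limma), and over all probe sets tested 68 were higher and 156 lower, where 311 were higher and 255 lower without it. Over all probe sets, the counts higher and lower were 746 and 515 with the variance trend and robust prior, 938 and 727 with array weights, 472 and 287 with the log2 filter at 7, and 164 and 218 with all probe sets tested. With any 1 array left out, 79 to 612 were higher and 149 to 487 lower, both highest without control array 1.

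Over the related lists and the 15 alternatives, genes higher numbered 1 to 7 in fatty acid uptake, 1 to 4 among peroxisomal and 0 to 4 among mitochondrial partners, 1 to 2 in ketone body metabolism, 0 to 2 in malonyl-CoA metabolism, 2 to 4 among PPAR regulators, 3 to 4 among PPAR alpha targets and 0 to 5 in branched-chain oxidation. Genes lower numbered 1 to 2 in fatty acid uptake, 0 to 3 among peroxisomal partners and 0 to 1 in ketone body metabolism.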
